A study of Mus musculus with 4 samples.

Results

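Complement and coagulation are 2 protein cascades of blood that act on the vessel wall, and 9 of their genes were followed here in the mouse retina: Vwf, Cd59a, C3, C4b, Serping1, Thbd, Procr, Plat and F3. They were taken by symbol from the 55357 genes of the deposited count tables. The data were 4 single-cell RNA libraries of retina, 2 labelled Diabetic and 2 labelled Ctrl, called Control here. Live cells had been enriched with microbeads against CD31, an adhesion protein on the surface of vessel-lining cells, and libraries were made with the 10x Chromium 3′ v3 kit, in which each captured molecule carries a unique molecular identifier (UMI). Strain, age, sex, diabetes model and its duration are not in the labels, nor is it stated if 2 libraries of 1 group are different animals. The p-values therefore measure only the spread between these libraries, which may be technical.

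The libraries held 58792636 and 41239892 UMIs in Diabetic 1 and 2, and 54901304 and 29792902 UMIs in Control 1 and 2. After filtering, 18741 cells remained, and 2106 of them (11.2%) formed an endothelial class, although the label of every library was CD31+ cell. RNA of other cell types was present in this class too and is given below. A further part of the cells was rod-like (4897 cells, 26.1%), and 5307 cells (28.3%) lay in that class or in endothelial clusters kept apart from it for low depth or for RNA of pericytes, Müller glia or rods. The endothelial class held 1010 and 495 cells in the Diabetic libraries and 415 and 186 cells in the Control libraries. The median mitochondrial share of UMIs, a sign of RNA quality, differed by group without overlap, at 2.45% and 3.24% in Diabetic and 4.26% and 4.42% in Control cells. Any pair of libraries shared between 5 and 9 cell barcodes. Cells were grouped without the 9 genes and without 72 further complement and coagulation genes, UMIs were added up per class and library, and levels are given as CPM, a gene's UMIs scaled to a common total per class and library.

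Endothelial cells make von Willebrand factor (Vwf), a large protein that captures platelets at a damaged wall. Clotting starts when tissue factor (F3), normally kept away from blood, meets it. The endothelial surface restrains clotting through thrombomodulin (Thbd), which turns thrombin towards activating protein C, and the protein C receptor (Procr), and tissue plasminogen activator (Plat) starts the breakdown of fibrin. Complement marks surfaces for removal through the deposited proteins C3 and C4b. C1 inhibitor (Serping1) blocks the proteases that start the classical pathway, and CD59 (Cd59a) stops the membrane attack complex on the cell's own surface. Glia and microglia of the retina are known sources of complement components.

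Promoters from 250 bases before to 50 bases after the annotated start are shown for Cd59a, C3 and Procr, the genes that were called higher in Diabetic endothelial cells and that had an entry in the RefSeq table used (GRCm38.p6). Capitals mark matches on either strand to 5 motifs that were searched: the NF-kB consensus, TTCNNNGAA (STAT), CCACCC (KLF), TGANTCA (AP-1) and the interferon-stimulated response element (ISRE). No entry was used for Vwf, C4b, Serping1, Thbd and Plat.
Cd59a: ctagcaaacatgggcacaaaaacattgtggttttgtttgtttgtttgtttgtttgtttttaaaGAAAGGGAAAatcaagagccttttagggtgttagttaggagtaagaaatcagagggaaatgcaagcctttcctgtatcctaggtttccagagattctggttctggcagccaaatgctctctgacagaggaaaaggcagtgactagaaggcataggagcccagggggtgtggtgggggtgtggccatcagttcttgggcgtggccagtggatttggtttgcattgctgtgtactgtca
C3: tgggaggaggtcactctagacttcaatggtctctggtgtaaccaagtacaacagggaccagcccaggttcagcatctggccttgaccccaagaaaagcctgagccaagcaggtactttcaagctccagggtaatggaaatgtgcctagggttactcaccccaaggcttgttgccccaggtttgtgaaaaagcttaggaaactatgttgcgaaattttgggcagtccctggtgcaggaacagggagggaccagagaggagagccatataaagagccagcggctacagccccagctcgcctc
Procr: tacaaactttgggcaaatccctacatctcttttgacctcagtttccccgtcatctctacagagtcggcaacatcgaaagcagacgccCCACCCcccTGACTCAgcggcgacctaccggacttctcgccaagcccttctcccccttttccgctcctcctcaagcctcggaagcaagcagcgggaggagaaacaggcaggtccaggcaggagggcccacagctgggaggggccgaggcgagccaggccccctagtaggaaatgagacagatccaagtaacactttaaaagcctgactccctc
The Cd59a window (chr2:104095551-104095850, plus strand, 45.7% GC) held 1 ISRE match, which began 187 bases before the start. The Procr window (chr2:155750967-155751266, plus strand, 58.3% GC) held 1 KLF match 163 bases and 1 AP-1 match 154 bases before the RefSeq start. That start lies downstream of the GENCODE start of Procr given below (155751117), so these distances do not apply to the latter. The C3 window (chr17:57228087-57228386, minus strand, 53.3% GC) held no match. Over 32851 promoters of the same length, 3.44% held an ISRE match, 31.5% a KLF match, 7.81% an AP-1 match, 8.30% a STAT match and 4.50% an NF-kB match. These matches describe the sequence and are not known binding sites.

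In the endothelial class, 5 of the 9 genes were called higher in Diabetic than in Control libraries (edgeR quasi-likelihood test, adjusted p under 0.05): Vwf, Cd59a, Serping1, C3 and Procr. None was called lower. In the same fit 3.94% of the 11559 genes tested were called higher and 6.34% were called in either direction. Of the 9 genes, 8 passed the filter on low counts. C3, C4b and Serping1, with at most 5 UMIs in any Control library, passed it through their Diabetic libraries and so had to differ to be tested. Both Diabetic libraries lay above both Control libraries in each gene called, as they did in 24.4% of all genes tested. The median mitochondrial share in this class was 2.68% and 3.32% in Diabetic and 5.49% and 4.94% in Control libraries, and its part in these changes was not tested.

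Vwf (chromosome 6, 125546774-125686679, plus strand, GENCODE annotation of GRCm38) had 2731 and 2362 UMIs in the Diabetic libraries and 276 and 268 UMIs in the Control libraries, or 585 and 696 CPM in Diabetic and 145 and 211 CPM in Control. Both Diabetic values lay far above both Control values. The log2 fold change was 1.87 ± 0.16 (SE; adjusted p = 3.07e-06), and it stayed called when any 1 library was left out (1.60 to 2.16). With endothelial cells taken by a marker gate and no clustering it was 1.07 (adjusted p = 0.00438).

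Cd59a (chromosome 2, 104095801-104115354, plus strand) had 401 and 397 CPM in Diabetic and 254 and 238 CPM in Control endothelial cells. The groups did not overlap, the spread within each was small, and the change was 0.69 ± 0.10 (log2, SE; adjusted p = 0.000666), called with any 1 library left out (0.66 to 0.73). Its paralogue Cd59b had 18 and 17 UMIs in Diabetic and 6 and 4 UMIs in Control endothelial cells, and a split of reads between the paralogues was not tested.

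Serping1 (chromosome 2, 84765387-84775444, minus strand) had 52 and 35 UMIs in Diabetic and 5 and 4 UMIs in Control endothelial cells, or 11.1 and 10.3 CPM against 2.62 and 3.15 CPM. The change was 1.91 ± 0.42 (log2, SE; adjusted p = 0.0140). It was no longer called without Diabetic 1 (adjusted p = 0.0786) or without Control 1 (0.111), nor by DESeq2 (0.264). With the marker gate and no clustering it was 0.64 ± 0.13 (adjusted p = 0.0320).

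C3 (chromosome 17, 57203970-57228136, minus strand), the central component of complement, had 21 and 24 UMIs in Diabetic and 1 and 0 UMIs in Control endothelial cells. The summed level was 17.7 times as high in Diabetic, with a 95% counting interval of 3.02 to 716 (edgeR adjusted p = 0.01502). Without Control 1 the adjusted p was 0.0579, without Diabetic 2 the gene was not tested, and DESeq2 gave 0.240. C4b (chromosome 17, 34728380-34743882, minus strand) had 19 and 13 UMIs in Diabetic and 1 and 3 UMIs in Control, with 1.61 ± 0.69 on the log2 scale, and was not called (adjusted p = 0.211). That C4b value rested on single libraries, with 0.73 without Control 1 and 2.84 without Control 2. C4b has a near-identical copy, C4a, which had 0 and 1 UMIs in Diabetic and 0 and 1 UMIs in Control endothelial cells.

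Procr (chromosome 2, 155751117-155755471, plus strand) had 113 and 77 UMIs in Diabetic and 21 and 19 UMIs in Control endothelial cells, or 24.2 and 22.7 CPM against 11.02 and 14.9 CPM. Its change of 0.89 ± 0.25 (log2, SE) was called by a small margin (adjusted p = 0.0481) and lost without Diabetic 1 (0.116), Diabetic 2 (0.0809) or Control 1 (0.299), and with DESeq2 (0.610). Procr was called in 5 of the 19 settings tried, the reported one included, with values of 0.22 to 1.10. The other anticoagulant and fibrinolytic genes were not called. Thbd (chromosome 2, 148404466-148408188, minus strand) had 189 and 213 CPM in Diabetic and 198 and 264 CPM in Control, overlapping between groups, with a change of -0.19 ± 0.14 (adjusted p = 0.496). Plat (chromosome 8, 22757727-22782844, plus strand) had 285 and 335 CPM in Diabetic and 344 and 391 CPM in Control, without overlap, and a change of -0.24 ± 0.12 (adjusted p = 0.291). F3 (chromosome 3, 121723537-121735048, plus strand) had 4 and 2 UMIs in Diabetic and 6 and 0 UMIs in Control endothelial cells, too few for the test.

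**Figure D1:**
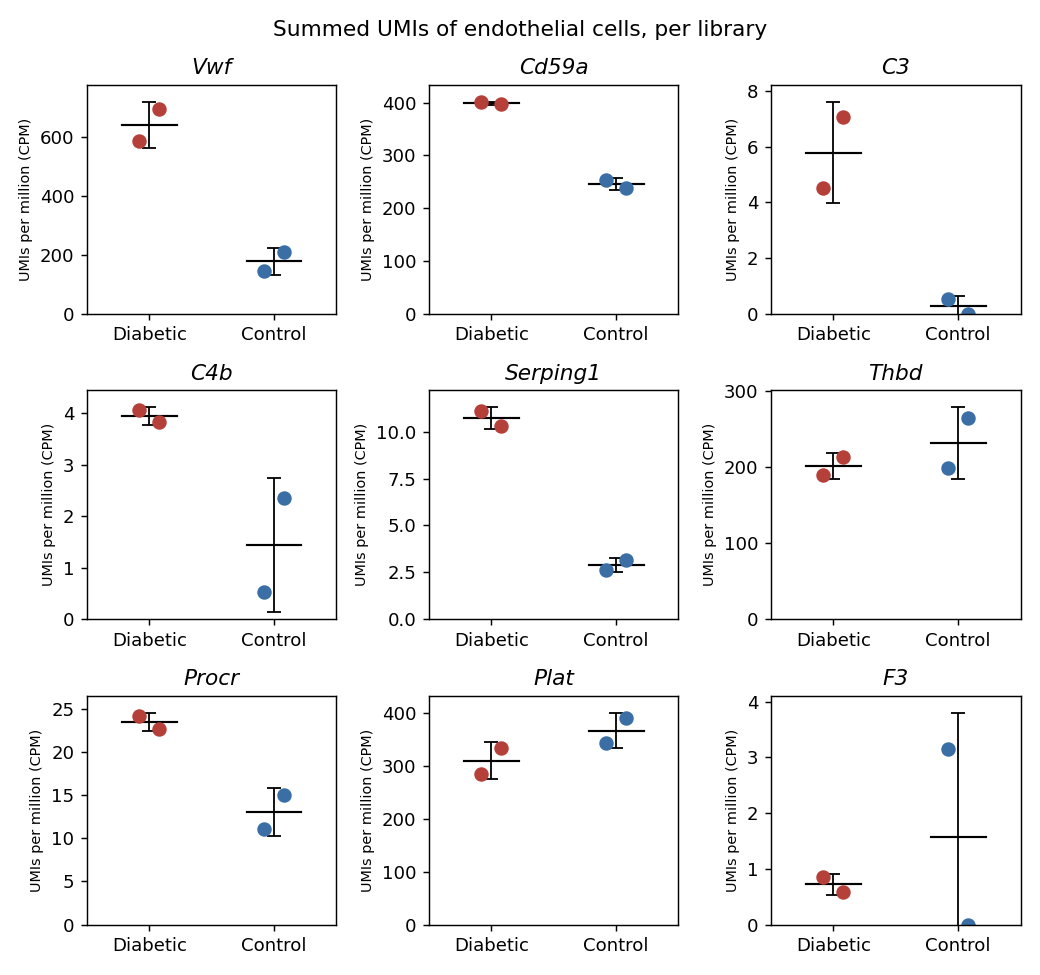
Level of each of the 9 genes in the endothelial class (CPM), with Diabetic libraries in red and Control libraries in blue. Points are libraries, the line is the mean and the bars are the SD (n = 2 each); both Diabetic points lie above both Control points for Vwf, Cd59a, C3, C4b, Serping1 and Procr.

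The endothelial class was not 1 kind of cell. Subclusters were named from marker lists as arterial-like (451 cells), capillary-like (1068 cells) and interferon-response-like (156 cells). A venular-like subcluster of 121 cells, led by Lcn2, Ackr1, Ptgs2 and Lrg1, came from the Diabetic libraries alone (71 and 50 cells, and 0 and 0 in Control), and an unnamed one led by Scgb3a1, Dusp2 and Mgp had 211 and 94 cells in Diabetic and 5 and 0 in Control. The venular-like cells summed to 10425.5 CPM over the list of inflamed venular markers, 3558 CPM over the venous and 5525 CPM over the arterial markers. Arterial-like cells had 3638 CPM of the arterial and 467 CPM of the venous markers. The name venular-like thus rests mainly on the inflamed list, and the cells were also high in arterial markers. The sizes of the venular-like and Scgb3a1 subclusters are not a separate result, since genes that define them differ between the groups. In sums over the class, more cells of a kind and more RNA per cell cannot be told apart.

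The venular-like cells, 8.04% of Diabetic endothelial cells with 17.7% of their UMIs, carried 57.8% of the Vwf UMIs of those cells. They also carried 44 of 45 C3 UMIs (97.8%), 64 of 87 Serping1 UMIs (73.6%) and 22 of 32 C4b UMIs (68.8%). For the other genes their share was near their share of all UMIs (Procr 17.9%, Cd59a 15.9%, Thbd 15.7%) or below it (Plat 9.39%). The Scgb3a1 subcluster, with 22.2% of the UMIs, held 34.9% of Cd59a, 31.1% of Procr and 22.3% of Vwf UMIs. In Diabetic cells the UMIs thus lay in different subclusters. Most of those of C3, C4b and Serping1 were in the venular-like cells, and those of Cd59a and Procr in both subclusters and beyond. In Control, 8 of 9 Serping1 UMIs and 4 of 4 C4b UMIs lay in capillary-like cells.

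**Figure D2:**
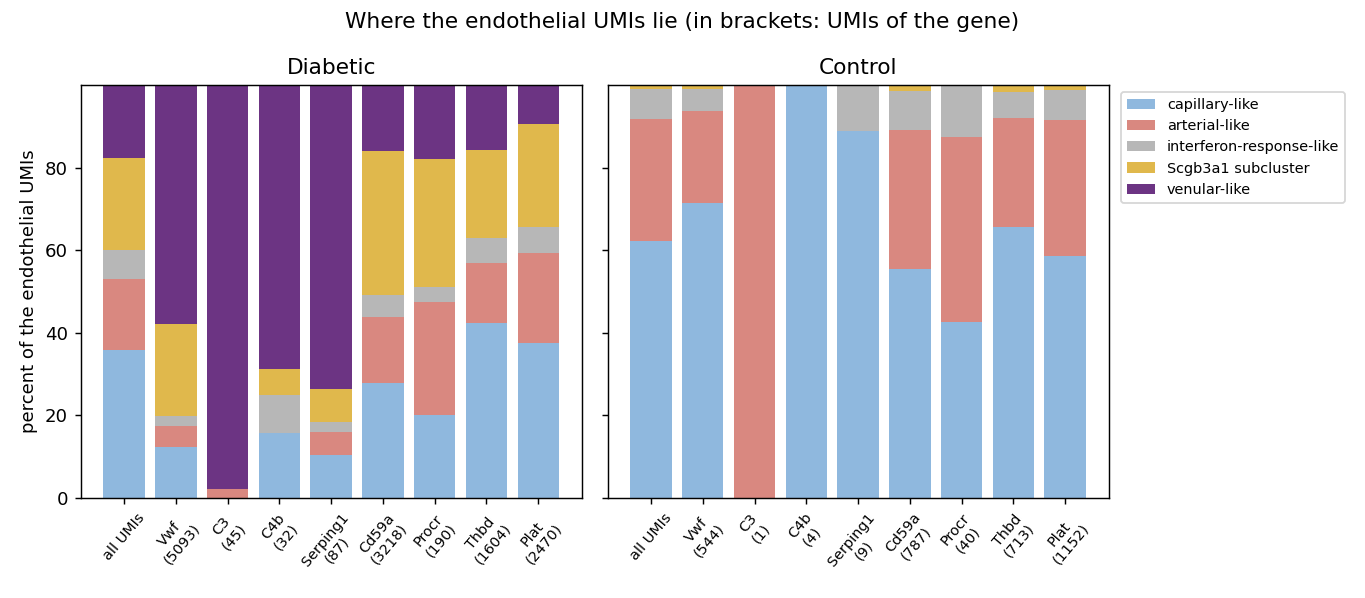
Percent of the endothelial UMIs of each gene that lay in each subcluster, Diabetic libraries left and Control libraries right, with the share of all UMIs as the first bar and the number of UMIs of the gene in brackets. Venular-like cells hold 17.7% of all UMIs but 57.8% of Vwf and 97.8% of C3 UMIs in Diabetic; several Control bars rest on fewer than 10 UMIs.

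In the venular-like cells Vwf stood at 2091 and 2033 CPM in the 2 Diabetic libraries, and a Vwf UMI was found in 97.2% and 96.0% of cells. Capillary-like cells had 222 and 208 CPM in Diabetic and 171 and 238 CPM in Control. After thinning every cell to 1000 UMIs, 87.0% and 75.5% of venular-like cells still had a Vwf UMI, against 13.6% and 15.5% of Diabetic and 11.8% and 19.2% of Control capillary-like cells. Rods, which should lack Vwf, had it in 4.82% and 4.12% of Diabetic and 0.723% and 1.15% of Control cells (median depth 3671 and 5656 UMIs in Diabetic, 4350 and 7032 UMIs in Control; 8621 and 12616 UMIs in venular-like cells).

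C3 was found in 14 of the 121 venular-like cells, 12.7% and 10.0% of those in Diabetic 1 and 2, with up to 9 UMIs in 1 cell. It was found in 0 of 454 and 0 of 228 Diabetic and 0 of 266 and 0 of 120 Control capillary-like cells. Counts of 0 then allow at most 0.661% and 1.32% in Diabetic and 1.13% and 2.50% in Control to have a C3 UMI, at median depths of 2924 and 4282 UMIs in Diabetic and 3370.5 and 4623.5 UMIs in Control. They limit detection at these depths, not expression. A C3 UMI was found in 0.280% and 0.111% of Diabetic and 0.131% and 0.144% of Control rods. The venular-like cells with C3 were deep (median 18030 UMIs, and 8837 UMIs in those without). After thinning, 4.35% and 2.04% of venular-like cells had a C3 UMI. Serping1 was found in 20 of 71 and 15 of 50 venular-like cells, against 8 of 454 and 0 of 228 Diabetic capillary-like cells and 4 of 266 and 4 of 120 Control ones, which were shallower. After thinning, 4.35% and 2.04% of venular-like cells had a Serping1 UMI, against 0.445% and 0% of Diabetic and 0.380% and 0% of Control capillary-like cells, shares that rest on 3, 1, 2, 0, 1 and 0 cells.

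RNA of other cells was present and was measured beside these values. The neutrophil markers summed to 31.7 and 32.7 CPM in Diabetic and 0 and 0.786 CPM in Control endothelial cells, so they moved with the group, and the neutrophil cluster itself held C3 (201 and 256 CPM in Diabetic, 0 and 127 CPM in Control). There were 0.242 C3 UMIs per 100 neutrophil-marker UMIs in the neutrophil cluster and 119 per 100 in the venular-like cells. Capillary-like cells had 36.7 and 51.0 CPM of these markers in Diabetic and 0 and 0 CPM in Control, with no C3 UMI. Of the 14 venular-like cells with C3, 4 also had S100a8 or S100a9.

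Pericyte markers, whose cells hold much Serping1, summed to 2284 and 2232 CPM in Diabetic and 2209 and 2112 CPM in Control endothelial cells, with all 8 markers present in each library. There were 1.38 Serping1 UMIs per 100 pericyte-marker UMIs in mural cells, 1.71 in venular-like and 0.166 in capillary-like cells. The venular-like cells had 2272 and 2929 CPM of pericyte markers, and those with a Serping1 UMI had a median of 2192 CPM of them, against 913 CPM in those without. The cells with Serping1 were also deeper (median 16882 UMIs, against 7326.5 UMIs in those without). The same held for C3 (2061 CPM of pericyte markers with a UMI, 1321 CPM without), C4b (1930 and 1321 CPM) and Vwf (1364 and 987 CPM), each also in deeper cells. Pericyte RNA thus moved with the detection of each of these genes, and its part in the Serping1 level was not tested. Astrocyte markers summed to 80.1 and 54.8 CPM in Diabetic and 66.1 and 62.1 CPM in Control endothelial cells. Macrophage or microglia markers summed to 318 and 69.5 CPM in the venular-like cells of Diabetic 1 and 2, and erythrocyte markers to 1632 and 21.4 CPM, so Diabetic 1 held more of both, and their part in the members' levels was not tested.

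Without the venular-like cells, 2 of the 9 genes remained called in the endothelial class, Vwf (0.87, adjusted p = 0.00258) and Cd59a (0.71, adjusted p = 0.000913), beside 3.18% of 11141 genes called in that fit. C3, C4b and Serping1 then had too few UMIs for the test. Without the Scgb3a1 subcluster too, edgeR called 0, beside 1.09% of 10741 genes, with 2 genes (Cd59a and Procr) at an unadjusted p under 0.05: Vwf had 0.24 (adjusted p = 0.580), Cd59a 0.37 (0.143) and Procr 0.61 (0.406). With equal numbers of cells drawn from each of 4 subclusters present in every library, Vwf had 0.20, Cd59a 0.24 and Procr 0.22, and edgeR called 0, beside 1.03% of 9046 genes, with 0 at an unadjusted p under 0.05. The equal draw, too, holds no venular-like or Scgb3a1 cells. DESeq2 was not run in these settings, and their shares of all genes at an unadjusted p under 0.05 are not given here. The removal of the subclusters was chosen after the data had been seen.

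**Figure D3:**
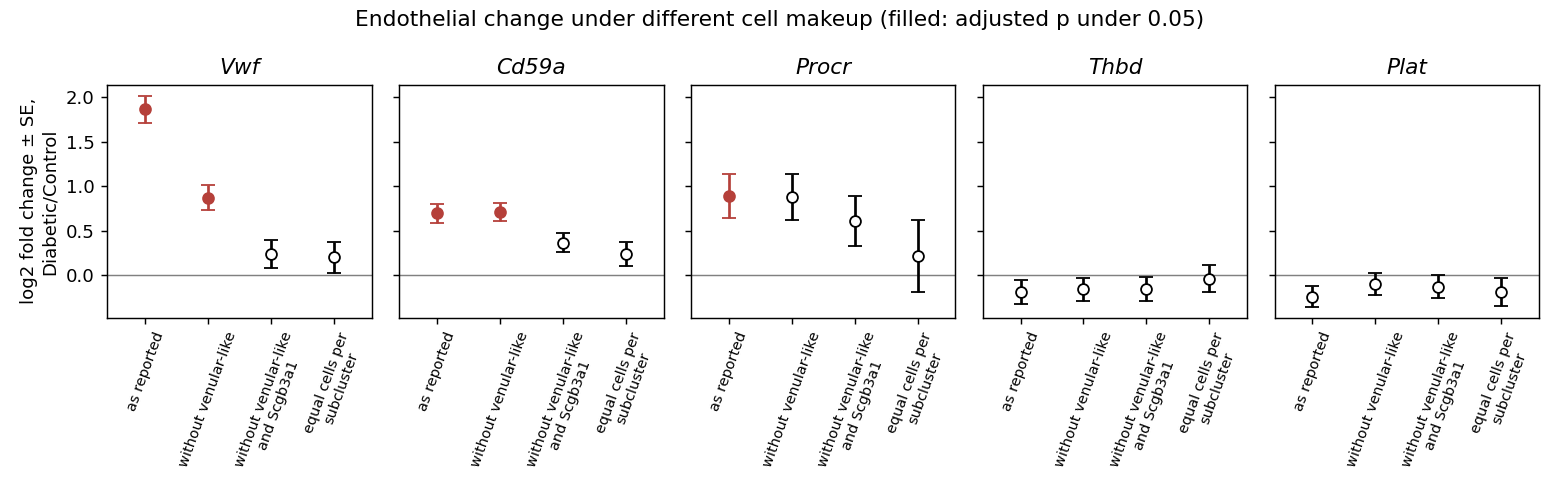
Log2 fold change (Diabetic over Control) ± SE in the endothelial class for 5 genes, as reported, without the venular-like cells, without the venular-like and Scgb3a1 cells, and with equal cells from each subcluster present in every library. That last setting also leaves out the venular-like and Scgb3a1 cells. Filled points are called. Vwf moves to 0.20 with equal cells, against 1.87 as reported, while Thbd and Plat stay below 0 in each of these settings.

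Within arterial-like cells, DESeq2 called 0 members, beside 19 of all genes. By edgeR 0 of the 5 genes tested were called, beside 1.04% of 7117 genes tested. An unadjusted p under 0.05 was found for 3 of the 5, and for 750 of the 7117 genes. Vwf had 173 and 216 CPM in Diabetic and 97.9 and 170 CPM in Control (0.52 ± 0.22, adjusted p = 0.372), and was called only without Control 2 (0.96, adjusted p = 0.00978). Procr had 36.1 and 39.6 CPM in Diabetic and 17.3 and 21.8 CPM in Control (0.93 ± 0.38, adjusted p = 0.374). Cd59a had 383 and 350 CPM in Diabetic and 311 and 250 CPM in Control (0.36 ± 0.16, adjusted p = 0.420). These 3 genes did not overlap between groups, nor did Thbd in the other direction (167 and 168 CPM in Diabetic, 175 and 235 CPM in Control). The share of all genes without overlap in these cells is not given here, and no member passed the test.

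Within capillary-like cells, DESeq2 called 0 members, beside 29 of all genes. By edgeR 0 of 5 genes tested were called (1.1% of 9619 genes were called). Of the 5 genes 1 had an unadjusted p under 0.05, as had 990 of the 9619 genes. Cd59a had 321 and 293 CPM in Diabetic and 220 and 222 CPM in Control (0.44 ± 0.12, adjusted p = 0.108), and was called only without Control 2 (0.46, adjusted p = 0.0424). Vwf was at 0.06 ± 0.14, with groups that overlapped. Thbd had 229 and 243 CPM in Diabetic and 204 and 287 CPM in Control, and Plat 275 and 385 CPM in Diabetic and 308 and 393 CPM in Control, both overlapping.

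To compare venous cells in both groups, endothelial cells were gated by marker lists: cells with at least 3 UMIs of the venous markers, in which these stood highest relative to the arterial and capillary ones. The gate held 152 and 92 cells in Diabetic and 34 and 24 cells in Control libraries. It was not the same mix of subclusters: of 244 Diabetic cells 89 were venular-like, 73 of the Scgb3a1 subcluster and 65 capillary-like, and of 58 Control cells 42 were capillary-like and 15 arterial-like. In this gate 3 genes were called higher (Vwf, C3, Cd59a) and 1 lower (Plat) of 7 tested, beside 3.46% of 8123 genes called higher and 1.92% lower (5.38% in either direction). Neutrophil markers summed to 34.4 and 16.96 CPM in the gated Diabetic and 0 and 0 CPM in the gated Control cells, and erythrocyte markers to 1042 and 33.0 CPM in Diabetic and 12.3 and 25.7 CPM in Control; their part in the changes was not tested. DESeq2 called 1 (Vwf), beside 167 of all genes. With every gene of at least 1 UMI kept, edgeR called 0, and the share of all genes there is not given here.

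In the gated cells Vwf had 1476 and 1434 CPM in Diabetic and 271 and 395 CPM in Control (2.17 ± 0.17, adjusted p = 4.13e-07). It was called with any 1 library left out (1.91 to 2.46). Cd59a had 345 and 402 CPM in Diabetic and 267 and 167 CPM in Control (0.82 ± 0.20, adjusted p = 0.0234), and was lost without Diabetic 2 (0.0799) or Control 2 (0.127). C3 had 20 and 24 UMIs in Diabetic and 0 and 0 UMIs in Control, at least 3.18-fold higher against a floor of 3 UMIs over the group (adjusted p = 0.0170; 0.0589 without Control 1, 0.0510 without Control 2, not tested without either Diabetic library). With no Control UMI, C3 passed the filter through its Diabetic libraries and had to differ to be tested. Plat ran the other way, with 214 and 231 CPM in Diabetic and 366 and 322 CPM in Control (-0.59 ± 0.17, adjusted p = 0.0489), called without Control 2 and lost without any other library.

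Serping1 had 26 and 30 UMIs in gated Diabetic and 0 and 2 UMIs in gated Control cells, a ratio of 6.07 (95% counting interval 1.60 to 51.4) that was not called (adjusted p = 0.0748). Procr had 24.2 and 21.4 CPM in Diabetic and 12.3 and 17.2 CPM in Control (adjusted p = 0.593), and Thbd 178 and 239 CPM in Diabetic and 226 and 305 CPM in Control (adjusted p = 0.510). When 6 markers that differ between the groups were left out of the gate, a choice made after the data had been seen, Serping1 and Procr were called as well (adjusted p = 0.0239 and 0.0414).

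The Vwf change was larger in the venous gate than in capillary-like cells by 2.14 ± 0.15 on the log2 scale (edgeR interaction test with library as a block, adjusted p = 6.11e-15; 2.73% of 10109 genes were called). That difference was called with any 1 library left out. The arms share cells, since 65 gated Diabetic and 42 gated Control cells were capillary-like. With the gated cells left out of the capillary-like arm, a choice made after the data had been seen, the Vwf difference was 2.22 ± 0.19 (adjusted p = 9.94e-14; 2.28% of 10019 genes called). For Cd59a the same difference was 0.37 ± 0.19 (adjusted p = 0.507), and for Plat -0.46 ± 0.17 (0.188). No member's change differed between arterial-like and capillary-like cells by this test, in which 0.161% of 9292 genes were called. Only 1 member, Vwf, had an unadjusted p under 0.05 (difference 0.47 ± 0.20), and the share of all genes at that level is not given here. DESeq2 was not run on differences.

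Serping1 was highest in mural cells: pericyte-like and smooth muscle-like cells had 233 and 282 CPM in Diabetic and 161 and 267 CPM in Control, against at most 51.3 CPM in an endothelial subcluster. The groups of mural cells overlapped and the change was 0.23 ± 0.27 (adjusted p = 0.988). Plat had 324 and 434 CPM in Diabetic and 297 and 297 CPM in Control mural cells (0.28 ± 0.23, adjusted p = 0.962). In mural cells DESeq2 called 0 members and 0 of all genes. By edgeR 0 of 5 genes tested were called, beside 0% of 6615 genes. None of the 5 had an unadjusted p under 0.05, against 333 of the 6615 genes. The Vwf change in endothelial cells was not called different from that in mural cells (1.43 ± 0.40, adjusted p = 0.0690; 0.567% of 10583 genes called).

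**Figure D4:**
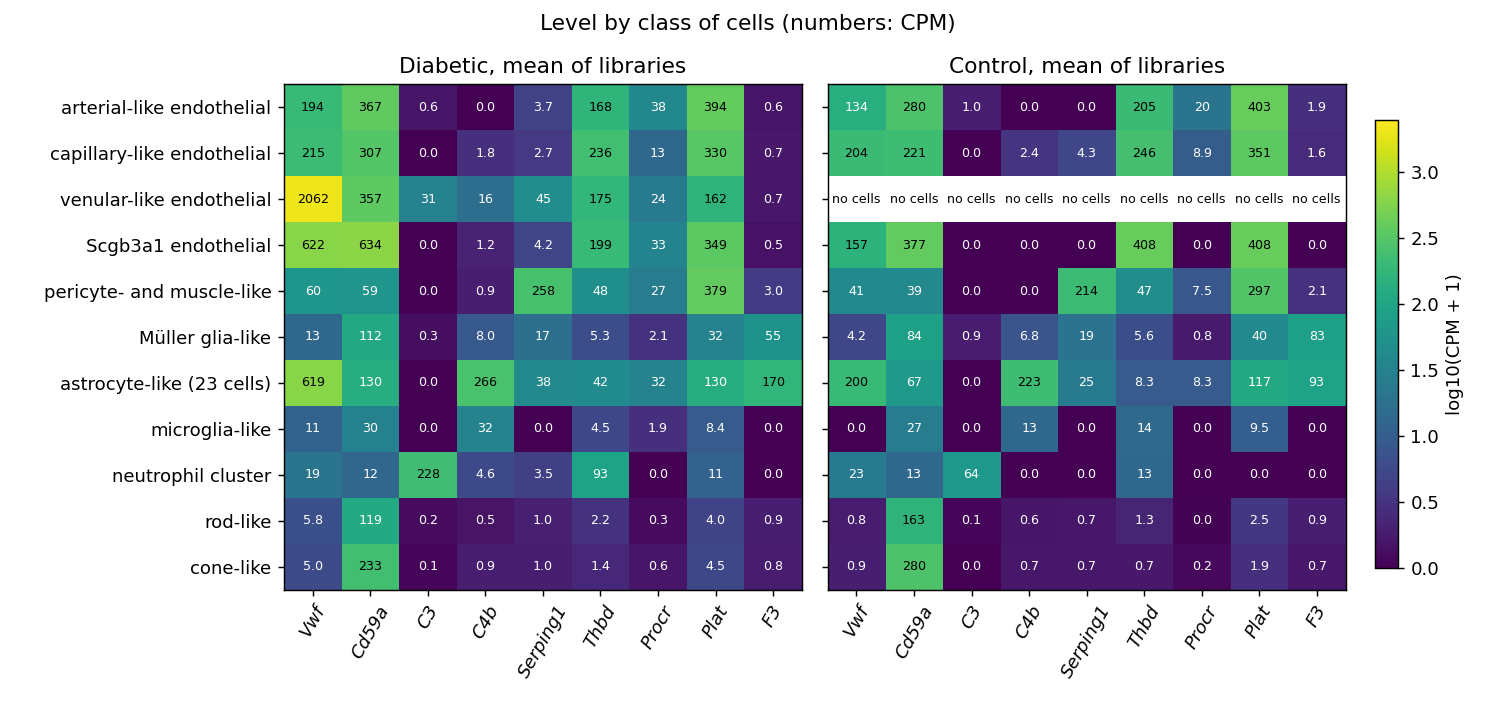
Mean level (CPM) of each gene by class of cells, Diabetic libraries left and Control libraries right, on a log10(CPM + 1) colour scale with the CPM written in each cell. Vwf is highest in venular-like cells and Serping1 in pericyte- and muscle-like cells; C3 is highest in the neutrophil cluster; the Control Scgb3a1 values rest on 5 cells of 1 library, and venular-like cells have no Control value.

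C3 was highest in the neutrophil cluster, with 87 and 67 UMIs in its 75 and 31 Diabetic cells and 0 and 5 UMIs in its 12 and 6 Control cells. That cluster was too small in Control for a test, and its Control cells held little neutrophil RNA: neutrophil markers summed to 105044 and 76016 CPM in Diabetic and 8827 and 50.9 CPM in Control. Macrophage or microglia markers there summed to 9755 and 12087 CPM in Diabetic and 1332 and 5599 CPM in Control, so the C3 and Thbd values of this cluster may not come from the same kind of cell in both groups. In 66 and 38 Diabetic and 51 and 28 Control microglia-like cells no C3 UMI was counted. C4b was highest in 23 astrocyte-like cells, with 39 and 22 UMIs in Diabetic (11 and 6 cells) and 7 and 12 UMIs in Control (2 and 4 cells), or 354 and 177 CPM against 246 and 200 CPM. These cells also carried endothelial RNA, with 400 and 838 CPM of Vwf in Diabetic and 0 and 401 CPM in Control. Microglia-like cells had 7 and 7 C4b UMIs in Diabetic and 2 and 1 UMIs in Control, a ratio of 2.34 (95% counting interval 0.654 to 12.7). Thbd had 53.2 and 134 CPM in the Diabetic and 0 and 25.4 CPM in the Control neutrophil cluster.

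In Müller glia-like cells (393 and 214 cells in Diabetic, 280 and 240 in Control), the main glia of the retina, DESeq2 called 0 members, beside 162 of all genes. By edgeR 0 of 5 genes tested were called, beside 2.1% of 11100 genes. Of the 11100 genes 2008 had an unadjusted p under 0.05, and of the 5 members tested 2 had. Those 2 were F3 and Vwf. F3, which initiates clotting, had 78 and 75 UMIs in Diabetic and 82 and 114 UMIs in Control, or 58.0 and 51.2 CPM against 77.9 and 88.2 CPM. The groups did not overlap (-0.66 ± 0.21, adjusted p = 0.0980). In the same cells the Müller glia markers summed to 14441 and 12382 CPM in Diabetic and 18988 and 18699 CPM in Control, and rod markers to 16673 and 25287 CPM in Diabetic and 9406 and 13516 CPM in Control; their part in the F3 difference was not tested. F3 stood at 227 and 113 CPM in Diabetic and 35.1 and 150 CPM in Control astrocyte-like cells (25 and 14 UMIs in Diabetic, 1 and 9 UMIs in Control), and at 7.66 and 15.0 CPM in Diabetic and 15.6 and 20.8 CPM in Control bipolar-like cells.

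Vwf in Müller glia-like cells was at 16 and 21 UMIs in Diabetic and 4 and 6 UMIs in Control (1.55 ± 0.50, adjusted p = 0.105), and Serping1 at 18.6 and 15.7 CPM in Diabetic and 18.99 and 18.6 CPM in Control (adjusted p = 0.831). The Serping1 change in endothelial cells exceeded that in Müller glia-like cells by 2.11 ± 0.58, which was not called (adjusted p = 0.102; 0.72% of 12227 genes called). In microglia-like cells none of the 9 genes passed the filter on low counts, and DESeq2 gave no adjusted p for any of them; 0.636% of 2828 genes were called there by edgeR.

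Vwf and Cd59a also differed between the groups in rods, in opposite directions. In rod-like cells (1785 and 897 in Diabetic, 1522 and 693 in Control), Vwf had 96 and 40 UMIs in Diabetic and 11 and 8 UMIs in Control, or 7.51 and 3.99 CPM against 0.846 and 0.804 CPM (2.72 ± 0.39, adjusted p = 0.000881). Rods are not a known source of Vwf. Of the other members tested in rods by edgeR, Thbd (0.66 ± 0.36, adjusted p = 0.224) and Plat (0.60 ± 0.31, adjusted p = 0.203) were not called. Serping1 (0.53 ± 0.47, adjusted p = 0.478) and F3 (-0.01 ± 0.50, adjusted p = 0.978) were not called either. Each endothelial library had 145 CPM or more of Vwf, and the part of Vwf RNA from outside the cells in the endothelial change was not tested. In the rod fit 8.1% of 14255 genes were called higher. In cone-like cells the change was 2.49 ± 0.57 (adjusted p = 0.0127), lost without Diabetic 1 (0.493) and without Control 1 (0.145).

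Cd59a in rod-like cells had 125 and 113 CPM in Diabetic and 158 and 169 CPM in Control, and was found in 40.7% and 45.9% of Diabetic and 48.5% and 59.7% of Control rods. It fell by 0.54 ± 0.08 on the log2 scale (adjusted p = 0.00103), and the change was called with any 1 library left out (-0.62 to -0.48). In the same fit 6.29% of genes were called lower and 14.4% in either direction. Cone-like cells had 227 and 239 CPM in Diabetic and 276 and 284 CPM in Control (-0.32 ± 0.10, adjusted p = 0.0653; 2.84% of 11898 genes were called). The endothelial change of Cd59a exceeded that in rods by 1.315 ± 0.15 (adjusted p = 6.16e-10; 2.76% of 15413 genes called) and that in cones by 1.081 ± 0.16 (adjusted p = 2.41e-08; 1.36% of 13690 genes called). For Vwf the same endothelial difference was -0.77 ± 0.39 from rods (adjusted p = 0.380) and -0.55 ± 0.59 from cones (adjusted p = 0.823), neither called.

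Cells with both endothelial and pericyte RNA, which were kept out of the endothelial class, were fitted as a class of their own. Their Cd59a level was 266 and 267 CPM in Diabetic and 177 and 179 CPM in Control, with no overlap (0.56 ± 0.10, adjusted p = 0.00376; 2.24% of 12509 genes called). Vwf there had 231 and 233 CPM in Diabetic and 162 and 228 CPM in Control (0.24 ± 0.13, adjusted p = 0.449), and Serping1 96.7 and 92.9 CPM in Diabetic and 77.1 and 49.0 CPM in Control (0.53 ± 0.15, adjusted p = 0.07695). Of the 9 genes, 1 was called in these cells.

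**Figure D5:**
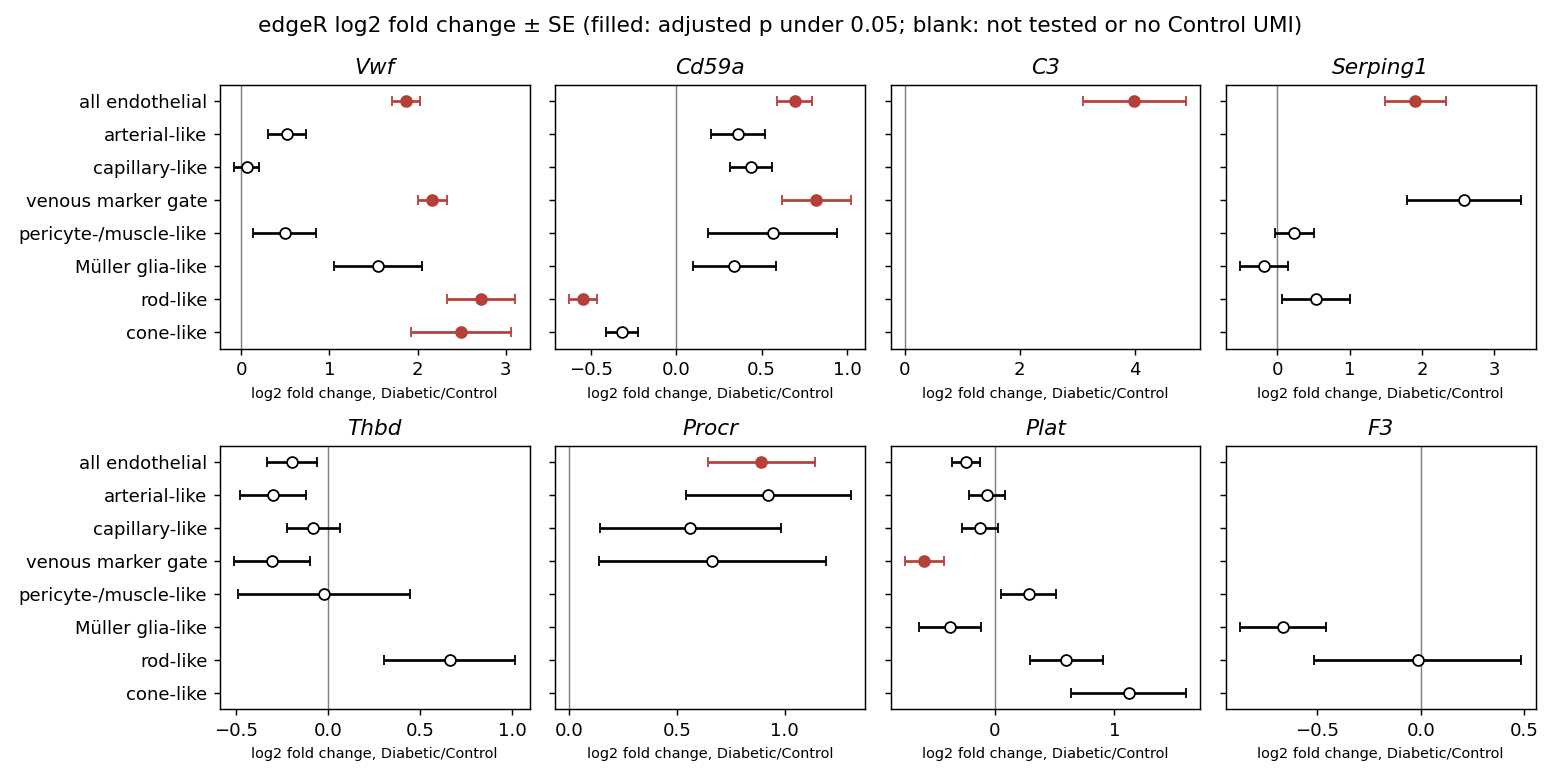
Log2 fold change (Diabetic over Control) ± SE of 8 genes by class of cells, from edgeR; filled points have an adjusted p under 0.05 and blank rows were not tested or had no Control UMI. Vwf lies above 0 in each class shown, while Cd59a lies above 0 in vessel and Müller glia-like cells and below 0 in rod-like and cone-like cells. Of the classes shown, Cd59a is called only in the endothelial class, the venous gate and rod-like cells.

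The wider list of 72 complement and coagulation genes gave the pathway around these members. In the endothelial class 30 passed the filter, of which 8 were called higher and 2 lower, beside 3.94% and 2.41% of all genes tested, and the median log2 change was 0.31, against -0.01 for all genes tested. C1ra, C1rb, C1s1 and F2r, with few or no Control UMIs, passed the filter through their Diabetic libraries and had to differ to be tested, so the count and median are a description. Those that rose included Serpine2, C1ra, C1rb, C1s1, Anxa2, Tfpi and F2r. DESeq2 called 3 of the list (Anxa2, C1ra, Serpine2), beside 324 of all genes.

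Proteases of the classical pathway were among them. C1ra had 49 and 51 UMIs in Diabetic and 2 and 3 UMIs in Control endothelial cells (2.96 ± 0.53, adjusted p = 0.00300), and C1s1 63 and 65 UMIs in Diabetic and 9 and 0 UMIs in Control (adjusted p = 0.0119). C1rb had 21 and 13 UMIs in Diabetic and 0 and 0 in Control, at least 4.46-fold higher against a floor of 3 UMIs over the group (adjusted p = 0.0119); reads of C1ra and C1rb, and of C1s1 and C1s2, may be split between near-identical copies. In the venular-like cells C1s1 stood at 77.7 and 76.2 CPM and C1ra at 57.2 and 58.8 CPM.

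On the coagulation side, Serpine2, a thrombin inhibitor, had 20.3 and 26.8 CPM in Diabetic and 6.82 and 4.72 CPM in Control (1.96 ± 0.32, adjusted p = 0.001695). Tfpi, the inhibitor of the tissue factor pathway, had 23.1 and 24.2 CPM in Diabetic and 9.97 and 13.4 CPM in Control (1.05 ± 0.26, adjusted p = 0.0237). F2r, a thrombin receptor, had 25 and 30 UMIs in Diabetic and 1 and 2 UMIs in Control, a ratio of 7.22 (95% counting interval 2.35 to 36.1; adjusted p = 0.0245). Anxa2, a plasminogen-binding protein, had 297 and 329 CPM in Diabetic and 216 and 232 CPM in Control (0.49 ± 0.11, adjusted p = 0.0154). Clu (-0.54 ± 0.15, adjusted p = 0.0436) and Gas6 (-0.40 ± 0.11, adjusted p = 0.0443) were the 2 called lower, and are named after their values were seen.

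Without the venular-like cells 3 of the wider list were called (Anxa2, Clu and Serpine2), beside 3.18% of all genes, and without the Scgb3a1 subcluster too, 1 (Clu), beside 1.09%. In the venous gate 7 of 18 genes tested were called higher and 1 lower (5.38% of all genes were called), and in arterial-like cells 1 of 13 lower (Clu, beside 1.04%). Capillary-like cells had 0 of 19 by edgeR (1.1%) and 0 by DESeq2 (29 of all genes). Of these 19, 5 had an unadjusted p under 0.05, as had 990 of all 9619 genes. By edgeR 0 of 19 were called in mural (0% of all genes), 0 of 15 in Müller glia-like (2.1%) and 0 of 17 in microglia-like cells (0.636%). DESeq2 called 0 of the list in each, beside 0, 162 and 20 of all genes in the same order. An unadjusted p under 0.05 by edgeR was found for 0, 1 and 3 of the list, and for 333 of 6615, 2008 of 11100 and 247 of 2828 of all genes. By level, the list's leading gene was C1qa in microglia-like cells (6809 and 7601 CPM in Diabetic, 5900 and 6240 CPM in Control; 0.30 ± 0.26, adjusted p = 0.809), Clu in Müller glia-like and Vtn in mural cells.

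Over 45 points of class or endothelial subtype by library, which share 4 libraries, the genes whose level followed each member most closely were listed as a description, from 13963 genes. Cd59a was most like Wwc2 and Plxna2 (Pearson r of log2(CPM + 10) 0.93 for both), Serping1 most like Gprc5c (0.98), Plat like Tbx3 (0.99) and Afap1l2 (0.98), Thbd like Pecam1 (0.97), and Vwf like Igfbp3 (0.95). The choice of genes depended on the pseudocount: of the 16 found for 8 members, 4 stayed among the leading 2 with a pseudocount of 1 (Wwc2, Plxna2, Gprc5c and Afap1l2).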

How the data were processed

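Counts were used as deposited by the authors: UMI counts per gene and cell barcode, made with Cell Ranger 7.0.0 and STAR 2.7.10b on mm10, per the submitters' processing notes. Barcodes under 500 UMIs or 300 genes, or with over 20% mitochondrial UMIs, were dropped. Predicted doublets were taken out at 0.8% per 1000 cells in every library (6.39% and 3.15% of Diabetic, 5.11% and 2.46% of Control cells). Clustering (scanpy 1.11.5, leidenalg 0.10.2) used 2000 variable genes and 30 components, and clusters were named from marker lists. Summed counts were tested with edgeR 4.0.16 (quasi-likelihood, filterByExpr, TMM, Benjamini-Hochberg over all genes tested), in classes with at least 20 cells per library; DESeq2 1.42.0 was an alternative. The test was tried on simulated counts, with changes placed only in genes above the endothelial levels of C3, C4b and Serping1. That trial does not cover calls on so few UMIs. The planned test of venous-like cells was replaced by a marker gate, because the venular-like subcluster has no Control cell; the rod, cone and mixed-RNA fits were added too. All 9 genes are described. Of the wider list, up to 8 called genes by p-value and the highest gene per class are named, and for most members 1 or 2 of the 2 genes most like it; some of these are not reported here. The genes and lists were chosen with earlier results of these data known. Intervals are exact and, like floors, cover counting error only. Gene positions are from GENCODE vM21, which held 52081 of the 55357 gene IDs.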

Additional observations from a re-analysis of the deposited data

Results flagged for a closer look

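The Vwf change was larger in the venous marker gate than in capillary-like cells by 2.1409 on the log2 scale, by the test of the difference itself. The capillary-like arm holds 42 of the 58 gated Control and 65 of the 244 gated Diabetic cells, and without them the difference was 2.22. The gate held 89 venular-like and 73 Scgb3a1 cells in Diabetic and 0 of either in Control, so the kinds of cells and the level per cell cannot be told apart there. The Cd59a change ran in opposite directions in endothelial and rod-like cells, and the fall in cone-like cells was not called (adjusted p = 0.0653). Endothelial cells exceeded rod-like cells by 1.3150 and cone-like cells by 1.0812 on the log2 scale, again by the test of the difference. Makeup differed here too: the Scgb3a1 subcluster, with 211 and 94 Diabetic and 5 and 0 Control cells, had 599 and 669 CPM of Cd59a in Diabetic. With equal cells from the subclusters present in every library, the endothelial change was 0.24 and not called. Interferon-response-like cells had 345 and 244 CPM in Diabetic and 308 and 321 CPM in Control. With any 1 library left out these 2 Cd59a differences stayed called, at 1.197 to 1.47 against rods and 1.00 to 1.18 against cones.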

How the results depend on the processing

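Of the 9 genes, 5 were called in the endothelial class. DESeq2 called 2, thinning cells to 1000 UMIs left 2, leaving out the venular-like subcluster left 2, leaving out the Scgb3a1 subcluster too left 0, equal numbers of cells per subcluster left 0, and leaving out 1 library in turn gave 2 to 5. Of the wider list 10 were called, against 3 with DESeq2, 1 with a marker gate and no clustering, 6 with the low-depth endothelial cluster added, 3 without the venular-like subcluster, 1 without the Scgb3a1 subcluster too, 2 with equal cells, 1 with thinned cells and 4 to 8 with 1 library left out. In the venous gate 4 genes were called, against 1 with DESeq2, 0 with no filter on low counts, 2 with at most 10% mitochondrial UMIs and 1 to 3 with 1 library left out. Leaving out 1 library gave 0 to 1 calls in arterial-like, capillary-like and cone-like cells, and DESeq2 gave 0 in cones. With no doublet removal 1 gene was called in Müller glia-like cells (F3). The number of members whose change differed between endothelial subtypes or from mural, Müller glia-like or microglia-like cells was 1, and 1 to 3 with 1 library left out (3 without Diabetic 1). For many of these settings the share of all genes called is not given, so the counts alone do not set members apart from other genes. The setting of equal cells per subcluster holds no venular-like or Scgb3a1 cells either. Of the 16 most alike genes, 4 stayed with log2(CPM + 1).

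Directions that turned belonged to changes that were not called. C4b in endothelial cells was at -0.8023 with the marker gate and no clustering, and Thbd in mural cells at 0.0224 with no filter and 0.0329 with no doublet removal. With 1 library left out, Thbd ranged from -0.4064 to 0.0317 in endothelial, -0.3327 to 0.1791 in capillary-like and -0.5995 to 0.5148 in mural cells. Plat ranged from -0.1307 to 0.0221 in arterial-like and -0.3971 to 0.1201 in capillary-like cells, Vwf from -0.1881 to 0.3109 in capillary-like cells, Serping1 from -0.1231 to 0.6039 in mural cells, Cd59a from -0.0175 to 0.8548 in Müller glia-like cells and F3 from -0.4707 to 0.4975 in rods. The causes were not tested, and a group left with 1 library was assumed to vary like the other.

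Libraries share replicate numbers across groups, but no label says that a number marks a shared animal or day, and there are 2 pairs. Deviations of same-numbered libraries correlated at 0.161 in endothelial, 0.125 in mural and 0.134 in Müller glia-like cells. With the number as a replicate block, 5 members were called in the endothelial class, 4 in the venous gate, 2 in Müller glia-like cells (F3 and Vwf) and 2 in cones (Cd59a and Vwf). The shares of all genes called in the blocked fits are not given here, so these counts have no background beside them. With 2 libraries per group, genes of few UMIs (C3, C4b, Serping1, Procr) are limited by depth.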
